A study of Mus musculus with 56 samples.

Results

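A set of 3 genes of the alveolar type II cell were followed in the mouse lung during acute lung injury: Sftpd, Slc34a2 and Napsa. They were taken as every spot of the MUSV29K nylon microarray whose gene name begins with Sftp or is Slc34a2 or Napsa. This gave 3 clones, 1 per gene, of the 7625 clones with a gene name, which carry 5883 gene symbols. No other gene whose name begins with Sftp was among the spots used here.

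Lung RNA came from female C57Bl/6J mice, 7 weeks old. The 27 OA mice received oleic acid (OA), a fatty acid that injures the lung when given in the blood, through the tail vein, and were sacrificed after 1 hour (4 mice), 1.5 hours (6), 3 hours (7), 4 hours (4), 18 hours (3) or 24 hours (3). The 8 control mice received physiological serum by the same route and were sacrificed after 1 hour (2 mice), 1.5 hours (1), 3 hours (2), 18 hours (2) or 24 hours (1), with none at 4 hours. RNA was labelled with 33P and hybridized 1 sample to a membrane, on 51 OA and 9 serum microarrays, so no untreated mouse stands beside the injected ones. The stages follow the study, early (1 and 1.5 hours), intermediate (3 and 4 hours) and late (18 and 24 hours). A number after the letter L in the names of the OA mice, unexplained in the labels and called lot here, was 2 or 3 in all early mice and 1 in all late mice, so late against early and lot cannot be told apart.

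The alveolar type II cell makes and recycles pulmonary surfactant, the film of lipid and protein that lowers surface tension in the alveolus. It stores surfactant in lamellar bodies, secretes it, takes it back up and renews the alveolar type I cells after damage. Slc34a2 is the sodium and phosphate cotransporter of its apical membrane, Napsa an aspartic protease of its secretory pathway that processes the precursors of surfactant proteins, and Sftpd encodes surfactant protein D, a collectin that binds microbial sugars in the airspace.

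In mouse assembly GRCm38.p6 (RefSeq), Slc34a2 lies on chromosome 5 from 53049353 to 53071664, Napsa on chromosome 7 from 44572445 to 44586846 and Sftpd on chromosome 14 from 41172212 to 41185198. Where on these genes the spotted cDNA clones lie was not given in the sources used here. The RefSeq promoter table held 1 of the 3 members. That member, Slc34a2, was also the only one called late against early, a call lost in 11 of 38 alternative computations. The 250 bases before its start are shown with the match to any of 6 motifs in capitals (chr5:53049103-53049352, GRCm38.p6, plus strand).
Slc34a2: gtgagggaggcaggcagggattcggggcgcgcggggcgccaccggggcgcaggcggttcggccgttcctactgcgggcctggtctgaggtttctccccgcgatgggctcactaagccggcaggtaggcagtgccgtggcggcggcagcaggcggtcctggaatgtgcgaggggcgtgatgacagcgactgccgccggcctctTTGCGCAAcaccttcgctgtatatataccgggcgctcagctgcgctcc
The capitals mark TTGCNNAA, the paired half-sites bound by C/EBP factors, which begins 48 bases before the start. That motif was present in 9.56% of the 32851 promoter windows of the same length. The other motifs, searched like this one on both strands, had no match in this window. Only the letters given for each motif were searched, so variants of them, also of the TATA box, were not covered. The AP-1 letters TGANTCA were found in 6.75% of all windows and the glucocorticoid receptor half-site AGAACA in 16.1%. The TATA box letters TATAAA were found in 12.4%. The letters CCAAT were found in 33.8%. The E-box letters CACGTG were found in 6.02%. No searched motifs overlapped here. The window was 69.6% G and C, against a median of 52.4% over all windows.

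The members, which mark the alveolar epithelium, served as a check of the lung label. On the scale of the authors' deposited log2 values, averaged over the microarrays of a mouse and then over the 27 OA mice, Sftpd was at 13.52, brighter than 99.5% of the clones. Slc34a2 was at 12.62, brighter than 98.5%, and Napsa at 9.89, brighter than 83.2%. The 95th percentile of the spots without a gene name was 8.95, so all 3 clones lay above it. These are signals of separate clones and give no order of transcript abundance between the genes. Between the 2 microarrays of a mouse (23 mice) the SD was 0.19 for Sftpd, 0.29 for Napsa and 0.21 for Slc34a2. Between mice of the same time point it was 0.16, 0.41 and 0.20. The first SD is between single microarrays and the second between mice mostly averaged over 2, so the pairs of values are not on the same footing.

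**Figure D1:**
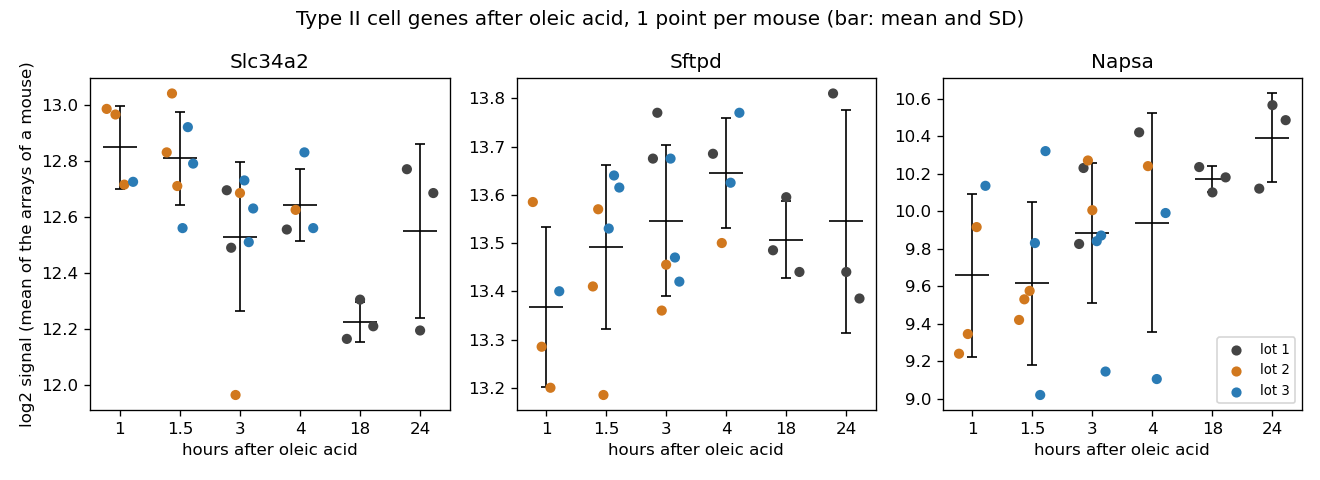
Deposited log2 signal (vertical axis) of Slc34a2, Sftpd and Napsa at each time after OA (horizontal axis, hours, equally spaced), with 1 point per mouse coloured by lot and bars for the mean and SD of the time point. Slc34a2 averaged 12.85 at 1 hour and 12.23 at 18 hours, Napsa 9.66 and 10.17, and Sftpd 13.37 and 13.51, and all mice at 18 and 24 hours belong to lot 1.

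The first comparison asked whether the members changed over time after OA, without reference to serum. Slc34a2 was lower in the late than in the early stage. At 1 hour the 4 mice were at 12.72, 12.72, 12.96 and 12.98, and at 1.5 hours the 6 mice ran from 12.56 through a median of 12.81 to 13.04. At 3 hours the 7 mice ran from 11.96 through 12.63 to 12.73, and at 4 hours the 4 mice were at 12.56, 12.56, 12.62 and 12.83. At 18 hours the 3 mice were at 12.16, 12.21 and 12.30, below every mouse of the early stage, whereas at 24 hours 2 mice, at 12.68 and 12.77, lay within the early range and 1, at 12.20, below it. The 10 early mice averaged 12.82 ± 0.15 (SD), the 11 intermediate mice 12.57 ± 0.22 and the 6 late mice 12.39 ± 0.27.

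Late minus early was -0.44 for Slc34a2 on the log2 scale (standard error 0.11), a factor of 0.737, and passed the test over all clones (limma, Benjamini-Hochberg adjusted p = 0.0386). In that contrast 126 of 7625 clones were called (1.65%). The clone did not pass for intermediate minus early (-0.24, adjusted p = 0.172, 2.57% of clones called), for late minus intermediate (-0.20, adjusted p = 0.379, 3.19% called) or in the F test over the 6 time points (adjusted p = 0.112, 2.01% called). In whole lung RNA, fewer type II cells and less Slc34a2 RNA in each cell cannot be told apart. Late minus early was -0.35 without mouse P7L1 of 24 hours (adjusted p = 0.137), and the call also ended without P8L1 of 24 hours, P10L1, P11L1 or P12L1 of 18 hours, P2L2 or P3L2 of 1 hour or P6L2 of 1.5 hours, left out singly. With each microarray centred on its median in place of quantile normalization it was -0.34 (adjusted p = 0.0549). With lot as a block it was -0.47 (adjusted p = 0.998). After subtraction of the serum mean of the same time point it was -0.18 (adjusted p = 0.206). No serum mouse was available at 4 hours, so OA mice of 4 hours had the serum mean of 3 hours subtracted.

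Within a lot, only neighbouring stages can be compared. In lot 2 Slc34a2 was at 12.87 ± 0.14 in 6 early mice and 12.42 ± 0.40 in 3 intermediate mice, a difference of -0.45 (limma, adjusted p = 0.101). In lot 3 the 4 early mice were at 12.75 ± 0.15 and the 5 intermediate mice at 12.65 ± 0.13, a difference of -0.10 (adjusted p = 0.886). In lot 1 the 3 intermediate mice were at 12.58 ± 0.10 and the 6 late mice at 12.39 ± 0.27, a difference of -0.19 (adjusted p = 0.855). The 3 differences had the same sign and none passed the test.

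Napsa had the widest spread of the 3 clones. At 1 hour its 4 mice were at 9.24, 9.34, 9.92 and 10.14, and at 1.5 hours the 6 mice ran from 9.02 through 9.55 to 10.32. At 3 hours the 7 mice ran from 9.14 through 9.87 to 10.27, and at 4 hours the 4 mice were at 9.10, 9.99, 10.24 and 10.42. At 18 hours the 3 mice were at 10.10, 10.18 and 10.24, and at 24 hours at 10.12, 10.48 and 10.56. All 6 late mice lay between 10.10 and 10.56, a range that 2 of the 10 early mice also reached. Late minus early was 0.64 (standard error 0.20) and did not pass the test (limma, adjusted p = 0.0882), nor did the F test over the time points (adjusted p = 0.379). The SD of Napsa within a time point was larger than that of 89.7% of all clones. Late minus early of Napsa passed with each microarray as an observation and mouse as a random block (0.62, limma, adjusted p = 0.0258), in the same fit with the AO or OA spelling of the microarray name as a term (0.60, adjusted p = 0.0307), and without mouse P4L3 of 1.5 hours (0.71, adjusted p = 0.0318) or P2L3 of 1 hour (0.72, adjusted p = 0.0486). Within lots, intermediate minus early was 0.67 in lot 2 (adjusted p = 0.111) and -0.24 in lot 3 (adjusted p = 0.797), and late minus intermediate was 0.12 in lot 1 (adjusted p = 0.993).

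Sftpd was the steadiest member. Its 27 mice lay between 13.18 and 13.81, and the time point means between 13.37 at 1 hour (4 mice at 13.20, 13.28, 13.40 and 13.58) and 13.64 at 4 hours (4 mice at 13.50, 13.62, 13.68 and 13.77). At 18 hours the 3 mice were at 13.44, 13.48 and 13.60, and at 24 hours at 13.38, 13.44 and 13.81. Every time point overlapped every other. Late minus early was 0.10 (standard error 0.09, limma adjusted p = 0.562), and the F test gave an adjusted p of 0.630. The levels of the 6 time points of Sftpd are therefore not ordered beyond their spread.

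Because quantile normalization sets every clone against all others, 2 members were also compared on the same microarray. In the log2 ratio of the scanner intensities of 2 clones, a factor common to a whole microarray cancels. Centring microarrays on their medians removes the same factor. A different spread of intensities between microarrays does not cancel. Only the change of a ratio between groups can be read, and the ratios were chosen after the values above had been seen. Slc34a2 over Sftpd ran from -0.89 through a median of -0.66 to -0.32 in the 10 early mice and from -1.18 through -1.09 to -0.62 in the 6 late mice. Late minus early was -0.39, a factor of 0.762 (exact permutation test over the mice, two-sided, adjusted over 3 ratios p = 0.00375), and it was -0.88, -1.05 and -1.38 with the 3 other signal measures of the image. Napsa over Slc34a2 ran from -3.83 through -3.18 to -2.37 early and from -2.51 through -2.12 to -1.65 late, so that late minus early was 1.01, a factor of 2.02 (exact permutation, adjusted p = 0.00375), and 1.29 to 1.57 with the other measures. Napsa over Sftpd was higher late by 0.62 (exact permutation, adjusted p = 0.0111) and lost its call with each of the 3 other signal measures of the image (0.18 to 0.41). Lot and stage cannot be told apart in these ratios either.

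The second comparison set OA mice against serum mice of the same time point, on the image intensities of the scanner, which were put on log2 and quantile-normalized over all 60 microarrays. The serum microarrays were dimmer, with a median spot between 5.73 and 8.39 on the log2 scale against 6.76 to 9.36 on the OA microarrays. Averaged over 5 time points, 61.6% of all clones were called between OA and serum (4700 of 7625), 34.3% higher and 27.3% lower in OA mice, and calls on the members are to be read against these shares. The part of hybridization brightness in these differences was not tested.

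**Figure D2:**
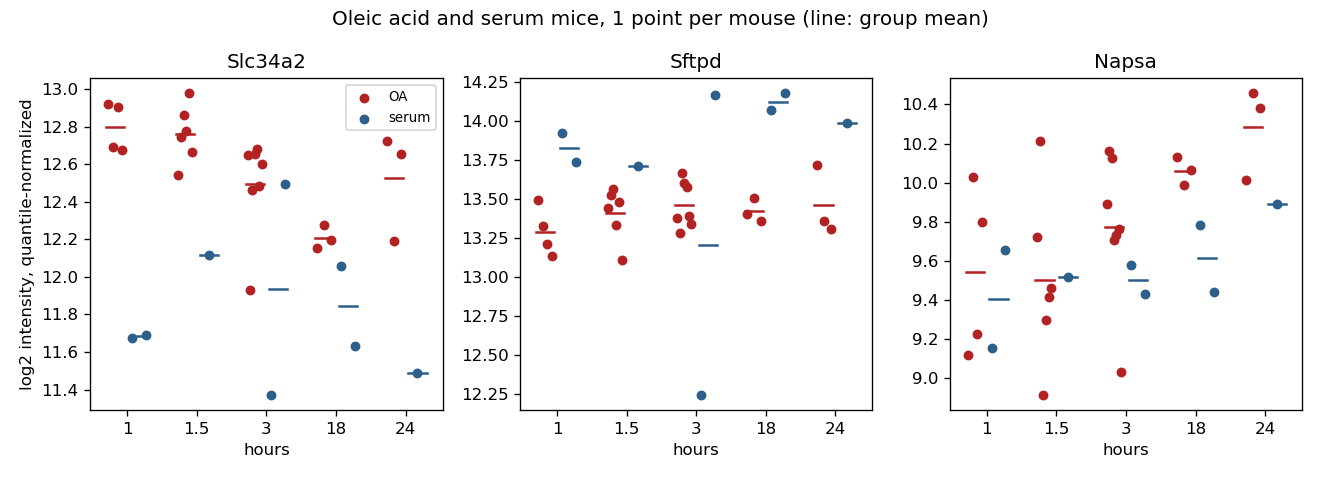
Quantile-normalized log2 intensity (vertical axis) of Slc34a2, Sftpd and Napsa in OA mice (red) and serum mice (blue) at the 5 shared times (horizontal axis, hours, equally spaced), with 1 point per mouse and a line at the group mean. Serum mice of Slc34a2 lie between 11.37 and 12.50, and the 2 serum mice of Sftpd at 3 hours stand apart at 12.24 and 14.17.

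With quantile normalization, but not with microarrays centred on their medians, Slc34a2 was higher in OA than in serum mice at all 5 time points by the group means. The serum mice were at 11.68 and 11.69 at 1 hour, 12.12 at 1.5 hours, 11.37 and 12.50 at 3 hours, 12.06 and 11.63 at 18 hours and 11.49 at 24 hours. OA mice ran from 11.93 through 12.66 to 12.98 on the same scale, so the groups overlapped between 11.93 and 12.50. The mean difference was 0.75 (standard error 0.11), a factor of 1.68 (limma, adjusted p = 9.56e-07). By time point it was 1.12 at 1 hour (adjusted p = 0.000259, 30.0% of clones called), 0.65 at 1.5 hours (adjusted p = 0.107, 14.1% called), 0.56 at 3 hours (adjusted p = 0.0256, 40.1% called), 0.36 at 18 hours (adjusted p = 0.247, 29.2% called) and 1.04 at 24 hours (adjusted p = 0.00930, 22.3% called). The change of this difference over time did not pass the test (adjusted p = 0.780), in which 0.105% of clones were called.

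The direction of this difference depended on the scaling. With each microarray centred on its median, OA minus serum for Slc34a2 was -0.01 (limma, adjusted p = 0.916). On single microarrays, where the place of a spot among all 9984 is the same under either scaling, Slc34a2 was the 88th to 299th brightest spot on OA microarrays (median 135) and the 141st to 466th on serum microarrays (median 365). At 3 hours the difference was -0.00236 without the serum mouse at 11.37 and 1.12 without the one at 12.50, so 1 mouse decided that value.

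Sftpd was lower in OA than in serum mice on average. The serum mice were at 13.92 and 13.73 at 1 hour, 13.71 at 1.5 hours, 12.24 and 14.17 at 3 hours, 14.07 and 14.18 at 18 hours and 13.99 at 24 hours, whereas the 27 OA mice ran from 13.11 through 13.42 to 13.72. Of the 8 serum mice, 6 stood above every OA mouse, 1 lay just under the highest OA mouse and 1 below all OA mice. The mean difference was -0.36 (standard error 0.13), a factor of 0.779 (limma, adjusted p = 0.0191), and no time point passed on its own. Its serum mouse at 12.24 came from the dimmest microarray, on which Sftpd was the 213th brightest spot, against 17th to 54th on the other 8 serum microarrays. With each microarray centred on its median the mean difference was -1.16 (adjusted p = 6.14e-12) and the 5 time points lay between -1.46 and -0.81, each past the test. Without the serum mouse at 12.24 the mean difference was -0.55 and the difference at 3 hours turned from 0.26 to -0.70. Without the other serum mouse of 3 hours they were -0.17 and 1.22. Each of these fits left 1 serum mouse at 3 hours, so the spread of serum mice there cannot be measured.

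The brightness of Sftpd reached the range in which the deposited quality mark changes. The mark, 0 or 1 for each spot, has no stated rule, and 2.47% of named spots between 10000 and 15000 intensity units had a 0, 18.0% of those between 15000 and 20000 and 90.9% of those above. Sftpd was marked 0 on 1 of 51 OA and 4 of 9 serum microarrays, which were its 5 brightest spots, at 18555 units and above. Slc34a2 and Napsa had no mark of 0 on any microarray. Whether such spots understate the signal was not tested.

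Napsa did not differ between OA and serum mice at the threshold. Its 8 serum mice ran from 9.16 through 9.55 to 9.89, inside the range of the OA mice (8.91 to 10.46), and the mean difference was 0.25 (standard error 0.16, limma adjusted p = 0.191). The difference passed when the spot was fitted rather than read from the image (0.48, adjusted p = 0.0316), and at calculated spot diameter it was 1.25 by image and 1.53 by fit (adjusted p = 0.000274 and 3.84e-05).

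**Figure D3:**
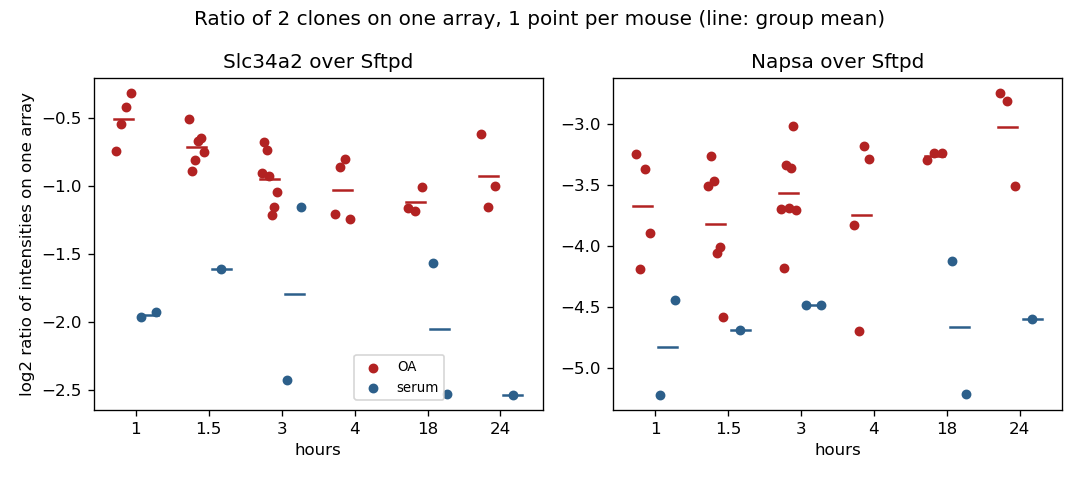
Log2 ratio of the scanner intensities of Slc34a2 to Sftpd and of Napsa to Sftpd on the same microarray (vertical axis), by hours after injection (horizontal axis, equally spaced), for OA mice (red) and serum mice (blue), with 1 point per mouse and a line at the group mean. Slc34a2 over Sftpd runs from -1.25 to -0.32 in OA mice and from -2.54 to -1.16 in serum mice.

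Within a microarray, both Slc34a2 and Napsa stood higher relative to Sftpd in OA than in serum mice. Slc34a2 over Sftpd was -1.95 (mean of 2 mice) in serum and -0.51 (mean of 4) in OA mice at 1 hour, and -2.54 (1 mouse) against -0.93 (mean of 3) at 24 hours. The difference averaged 1.14 over the 5 time points, a factor of 2.21, with the 5 values between 0.84 and 1.61 (exact permutation within time points, 151200 arrangements, two-sided, adjusted over 3 ratios p = 1.98e-05). The only overlap was a serum mouse of 3 hours at -1.16. Napsa over Sftpd differed by 1.19, a factor of 2.28 (exact permutation, adjusted p = 1.98e-05). The size of both depended on the signal measure. With the other 3 measures of the image, the fitted signal at constant diameter and the image and fitted signal at calculated diameter, Slc34a2 over Sftpd differed by 1.5, 2.14 and 2.36 and Napsa over Sftpd by 1.75, 3.67 and 4.01. Napsa over Slc34a2 differed by 0.04 (exact permutation, adjusted p = 0.820), with OA higher at 2 of 5 time points, but by 1.53 and 1.65 with the image and fitted signal at calculated diameter (adjusted p = 0.00566 and 0.00612). With 61.6% of clones called between the groups, these ratios do not say which member moved. With microarrays centred on their medians, OA minus serum averaged -0.01 for Slc34a2, 0.03 for Napsa and -1.16 for Sftpd. The ratios of the first measure are the differences between these values. With quantile normalization the 3 values were 0.75, 0.25 and -0.36. The part of a different spread of intensities on the dimmer serum microarrays was not tested.

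Co-variation over the 27 OA mice was tested for the 3 pairs of clones, with the raw values and after subtraction of the time point means, which makes 6 relations. Napsa and Slc34a2 ran against each other. Their Pearson r was -0.62 (permutation test, adjusted p = 0.00306) and Spearman rho -0.64 (adjusted p = 0.00216, permutation). With the time point means subtracted and values permuted within time points, r was -0.55 (adjusted p = 0.0143) and rho -0.68 (adjusted p = 0.00216). Without the 2 mice farthest from the median of Napsa, r was -0.59 raw and -0.54 centred. After centring it was -0.60, -0.65 and -0.66 in lots 1, 2 and 3 (9 mice each), and without mouse P12L3 of 4 hours the centred r was -0.52 with an adjusted p of 0.0630.

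**Figure D4:**
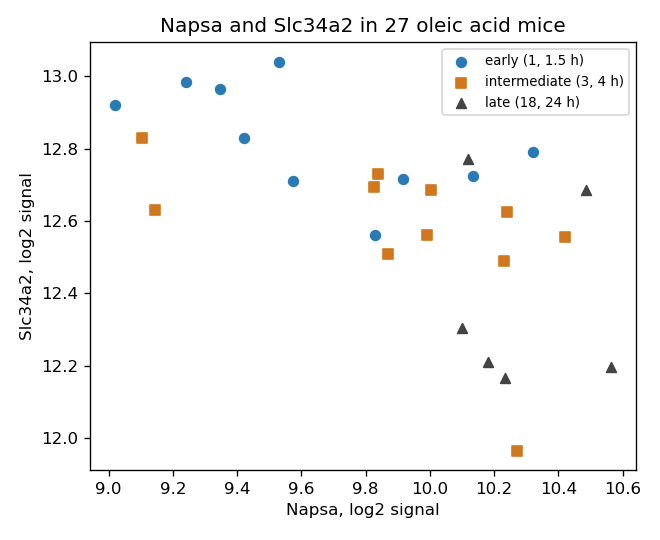
Deposited log2 signal of Napsa (horizontal axis) and Slc34a2 (vertical axis) in each of the 27 OA mice, with 1 point per mouse and the stage given by colour and shape. The 5 mice with the lowest Napsa, from 9.02 to 9.34, have Slc34a2 between 12.63 and 12.98, and the mouse with the lowest Slc34a2, at 11.96, has Napsa at 10.27.

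The other pairs did not pass. Sftpd and Slc34a2 had a raw r of 0.10 (rho 0.06) and a centred r of 0.40 (rho 0.41, permutation, adjusted p = 0.189 for r and 0.159 for rho). Sftpd and Napsa had a raw r of 0.07 (rho -0.01) and a centred r of -0.08 (rho -0.21). The opposition of Napsa and Slc34a2 was also present between repeated hybridizations of the same mouse. Over the 23 mice with 2 microarrays, the differences between the 2 microarrays had a correlation through the origin of -0.52 for this pair, against 0.08 for Sftpd with Slc34a2 and 0.14 for Napsa with Sftpd, though they ran in opposite directions in only 12 mice and in the same direction in 10. How much of the co-variation over mice comes from the hybridizations was not tested.

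The spelling of the treatment in the microarray names moved with Slc34a2. Of the OA microarrays some are named AO and others OA, for a reason the labels do not give, and 18 mice had 1 of each. The AO microarray was lower than the OA microarray of the same mouse in Slc34a2 by 0.24 on average (SD 0.23), with the AO microarray higher in 2 of 18 mice (exact sign-flip permutation, two-sided, adjusted over 3 clones p = 0.000916). For Napsa the AO microarray was higher by 0.16 (adjusted p = 0.189, exact permutation) and for Sftpd the difference was -0.05 (adjusted p = 0.480, exact permutation). AO microarrays numbered 3 of 8 at 1 hour, 5 of 11 at 1.5 hours, 5 of 13 at 3 hours, 4 of 8 at 4 hours, 2 of 5 at 18 hours and 4 of 6 at 24 hours. With each microarray as an observation and mouse as a random block, late minus early of Slc34a2 was -0.42 (limma, adjusted p = 0.00897) and the F test passed (adjusted p = 0.0345). With the spelling added as a term to that fit, late minus early was -0.41 (limma, adjusted p = 0.00894) and the F test passed (adjusted p = 0.0214).

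**Figure D5:**
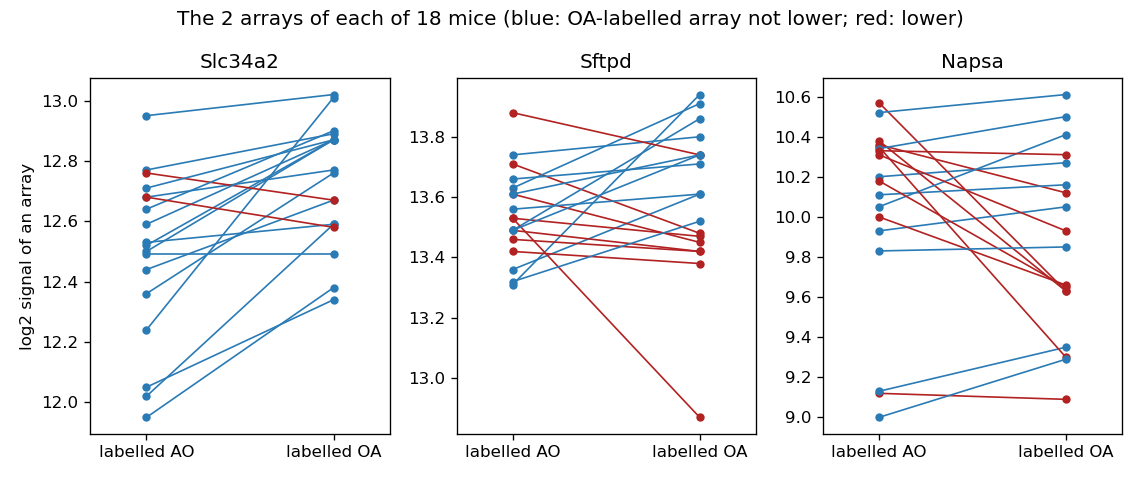
Deposited log2 signal (vertical axis) of the AO-named and the OA-named microarray (horizontal axis) of each of 18 OA mice, joined by a line, for Slc34a2, Sftpd and Napsa. Lines are blue where the OA-named microarray is not lower and red where it is, which for Slc34a2 is the case in 2 mice.

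The clones most like each member over the 27 OA mice were named by Pearson r, as a description with no test. For Slc34a2 they were Lrrcc1 (0.74), Ggh (0.74), Rad21 (0.73), Ptprc (0.73) and Ly75 (0.72). Of these, Lrrcc1, Ggh, Ptprc and Ly75 had mean signals between 7.22 and 8.02, under 8.95, the 95th percentile of the spots without a gene name. For Napsa they were Rgs16 (0.91), Eif4ebp2 (0.89), Gls2 (0.87), Rcbtb1 (0.87) and Nfatc4 (0.84), and after subtraction of the time point means these r stayed between 0.78 and 0.89. For Sftpd they were Gprc5a (0.65), D2Ertd391e (0.62), Tap1 (0.62), Dym (0.60) and Samhd1 (0.60). Gls2, at a mean signal of 7.305, and D2Ertd391e, at 8.026, also lay under 8.95. The values correlated here share microarrays and normalization. No member was among the 5 nearest of another, by the rule that leaves members out.

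Other type II cell genes gave a background for the members. The list of 17 such genes matched 13 clones of 10 genes, the members among them, and none of the 13 passed limma's F test over the 6 time points, where 2 of them and 1208 of all 7625 clones had an unadjusted p under 0.05. In late minus early, Slc34a2 was the only 1 of the 13 called, against 1.65% of all clones. The median late minus early of the list was 0.09, against 0.00 over all clones. Against serum, 4 of the 13 were called higher and 6 lower in OA mice, with a median of 0.17 against 0.05 over all clones. Over all clones 34.3% were called higher and 27.3% lower. These directions rest on quantile normalization, and with microarray medians only the members were followed. Ctsh, a lysosomal protease that also processes surfactant protein precursors, was higher in OA mice on both clones (0.66 and 0.65, adjusted p = 1.89e-05 and 2.38e-07), while the transcription factors Cebpa (-0.47, adjusted p = 0.00647) and Foxa2 (-0.43, adjusted p = 0.00209) and the mucin Muc1 (-0.41, adjusted p = 0.000371) were lower. The transcription factor Etv5 was also lower (-0.26, adjusted p = 0.0213). The chemokine Cxcl15 was higher on its brighter clone (0.66, adjusted p = 0.00127) and at 0.39 on the dimmer (adjusted p = 0.307). That dimmer clone, at a mean signal of 7.26, and Foxa2, at 8.42, lay under 8.95, the 95th percentile of the spots without a gene name. The 2 clones of Aytl2, the older name of the lysophosphatidylcholine acyltransferase Lpcat1, were at 0.17 (adjusted p = 0.197) and -0.42 (adjusted p = 0.00336), and disagree.

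Genes next to each member's role were followed by the same tests. Mbl2, another collectin, was higher late than early by 0.36 (limma, adjusted p = 0.0464), and passed the F test (adjusted p = 0.0351). However, its mean signal of 7.62 lay under 8.95, the 95th percentile of the spots without a gene name. The phosphate transporters Slc20a1 and Slc20a2 had late minus early values of -0.11 (adjusted p = 0.378) and 0.04 (adjusted p = 0.732). None of the 5 clones of the aspartic proteases Ctse, Ctsd and Bace1 was called late against early by limma, and their values ran from -0.20 to 0.35. With Napsa, 4 of the 6 aspartic protease clones had an unadjusted p under 0.05 in that contrast, as had 1570 of all 7625 clones. Among 21 clones of surfactant lipid synthesis, 10 had mean signals above 8.95 and 2 passed the F test, against 2.01% of all clones. These 2 were Elovl1 (adjusted p = 0.00699) and Chka (adjusted p = 0.00409), which act in fatty acid elongation and in choline phosphorylation. Pemt, which makes phosphatidylcholine by methylation, was the 1 clone called late against early (0.40, limma, adjusted p = 0.0464), against 1.65% of all clones. Its mean signal of 8.04 lay under 8.95. The 2 clones of Fasn, the fatty acid synthase, had late minus early values of -0.10 and 0.17 (adjusted p = 0.817 and 0.637). The first of them, at a mean signal of 8.51, also lay under 8.95.

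Markers of other cells of the lung were read beside the stage difference of Slc34a2. None of 13 epithelial, 12 endothelial, 5 airway, 7 macrophage and 15 red cell clones was called late against early by limma, against 1.65% of all clones. Of them 4, 5, 0, 4 and 0 had an unadjusted p under 0.05, as had 1570 of all 7625 clones. In the same order 9, 8, 5, 1 and 15 had mean signals above 8.95. The hemoglobin clones Hba-a1 and Hbb-b1 (13.90 to 14.41) and the airway Cbr2 clones (14.25 and 14.35) were near the top of the scale. Quantile normalization leaves such values little room to move, so the lack of a call says little about them. Of 5 neutrophil clones, S100a8 was lower late by -1.54 (limma, adjusted p = 0.0464), and S100a9 had a value of -0.85 (adjusted p = 0.166). The summed signal of the neutrophil clones, on the log2 scale, ran from 12.47 to 15.20 in early and from 11.99 to 13.03 in late mice. Lcn2, at a mean signal of 9.63, had a late minus early value of the other sign, 0.72 (adjusted p = 0.292). Ltf and Camp, the remaining neutrophil clones, had mean signals of 8.82 and 8.64, under 8.95, the 95th percentile of the spots without a gene name. The part of neutrophil RNA in the share of Slc34a2 was not tested. Alveolar type I cells were represented by 1 clone, Clic5. It was at 7.44, also under that 95th percentile, so the level of that cell type cannot be read here.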

How the data were processed

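Lung RNA of 27 OA and 8 serum mice was measured on 60 nylon microarrays of 9984 spots. The authors quantified images with Bzscan2 and deposited linear intensities per spot, a quality score of 0 or 1, used here only to describe spots, and a table of log2 values, which they quantile-normalized. Of the 4 intensity measures, the one read from the image with a constant spot diameter tracks the OA columns of that table and was used. Its serum columns, 1 value per time point, follow another measure more closely and were not tested. Whether the intensities include the local background correction stated in the methods is unknown.

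Samples were grouped by the labels. The microarrays of a mouse were averaged. One OA microarray of an unresolved mouse was left out, and 1 of P7L3 whose labels name 2 time points was taken as 3 hours. For OA minus serum, intensities with a floor of 1 were put on log2 and quantile-normalized over all microarrays. Fits covered 7625 named clones in R 4.3.3 with limma 3.58.1 (lmFit, eBayes, Benjamini-Hochberg, adjusted p under 0.05). They were also run on simulated data with independent noise, which held no lot effect and no dimmer serum microarrays. The number of microarrays limits precision, and the 8 serum mice share their spread with the OA mice in 1 fit. Correlations used 100000 permutations in Python 3.11.15. Named genes were the members, the 5 clones most correlated with each over mice, and genes of fixed lists, named where they passed the F test, were next to a member's role, marked other cells or were called in a contrast described. The lists covered alveolar type II, surfactant lipid synthesis, surfactant clearance, alveolar type I, airway, epithelial, endothelial, macrophage, neutrophil and red cell genes, collectins, phosphate transporters and aspartic proteases. Members, lists and tests were chosen with earlier results of these data known. Alternatives changed the signal measure, scaling, serum subtraction, lot, filter on dim clones, variance prior and the mice left out.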

Additional observations from a re-analysis of the deposited data

Results flagged for a closer look

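In each group of 4 to 10 OA mice the highest and lowest value of each member was set against the rest (12 groups of 4, 6 or 7 mice). A single mouse stood far from the others in 2 of them, and chance alone gives about 1 in 20. Napsa in mouse P9L3 at 3 hours was at 9.145, against 9.825 in the next lowest mouse, with its 2 microarrays at 9.00 and 9.29. Slc34a2 in mouse P16L2 at 3 hours was at 11.965, against 12.49 in the next lowest, with its 2 microarrays at 11.94 and 11.99. In P16L2 Napsa was at 10.27, the highest of the 7 mice of that time point. Without P16L2 the adjusted p of Slc34a2 over the 6 time points was 0.0468 (limma).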

How the results depend on the processing

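The 43 values followed here were recomputed under alternatives, which gave 1560 values, of which 1416 kept their direction and side of the threshold (for counts of clones, stayed within 1.5 times). Of the others, 26 lost a call, 31 gained one, 21 changed sign and 66 moved. The cause was not tested except where named. The mean over time points of Sftpd in OA minus serum, Slc34a2 over Sftpd in both comparisons and Napsa over Slc34a2 late against early kept direction and call under all alternatives run on them, though not their size. For the ratios these were other signal measures and single mice left out, and neither lot nor quantile normalization was among them. The 1 or 2 serum mice per time point limit precision, and late against early and lot cannot be told apart. No paired analysis was possible because the numbers in the mouse names do not tie mice of different time points together, and the serum mice carry none.

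Counts of called clones are given for the F test over the time points, intermediate minus early, late minus intermediate and late minus early, which were 153, 196, 243 and 126. With constant diameter but a fitted spot they were 56, 58, 77 and 47. They were 4264, 2756, 2042 and 1809 after subtraction of the serum means (that of 3 hours for OA mice of 4 hours), and 71, 69, 44 and 2 with lot as a block. The first, second and last were 438, 376 and 350 with microarrays as observations, and 466, 385 and 348 with the spelling of the name as a term, which was chosen after seeing the data. All but the last, in this order, were 97, 128 and 118 among clones above the 95th percentile of the spots without a gene name. Fewer clones were tested there. Intermediate minus early was 11 in lot 3 and 89 in the mean of lots 2 and 3, and late minus intermediate 42 in lot 1, where fewer mice were compared. Leaving out single mice gave 89 (without P7L1) to 299 (P4L3), 101 (P2L2) to 392 (P4L3), 122 (P8L1) to 277 and 37 (P7L1) to 474 (P4L3).

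OA minus serum, with 4700 clones called and 8 in its change over time, gave 1602 and 1 above the spots without a gene name, 1540 and 68 with the image signal and 1859 and 100 with the fitted signal at calculated diameter (both chosen after seeing the data), and 59 for the change with the fitted signal at constant diameter. The change was called in 4 clones without P6L1 to 329 without the second serum mouse of 3 hours.

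For Slc34a2, late minus early was -0.34 with microarray medians, -0.18 after serum subtraction and -0.47 with lot as a block, none of them called, and -0.49 to -0.35 with single mice left out. Its adjusted p over time points (limma) was 0.000790 after serum subtraction, 0.0345 with microarrays as observations, 0.0214 with the spelling term and 0.0468 to 0.237 with mice left out. The first of these takes the serum means as exact. In the limma fit that carries the spread of the serum mice, the change of OA minus serum over time had an adjusted p of 0.780. Late minus intermediate turned to 0.083 after serum subtraction, in which OA mice of 4 hours had the serum mean of 3 hours subtracted. With microarray medians OA minus serum was -0.014 on average, -0.19 at 1.5 hours and -0.26 at 18 hours, and the value at 3 hours ran from -0.00236 to 1.12 with mice left out.

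For Sftpd, late minus intermediate was 0.072 when spots were fitted at constant diameter, and late minus early turned to -0.19 after serum subtraction and -0.12 with lot as a block. After serum subtraction the adjusted p over time points was 7.66e-08, intermediate minus early 0.73 and late minus intermediate -0.92, both called (adjusted p = 6.46e-08 and 2.57e-08, limma). That subtraction takes the serum means as exact. For OA mice of 3 and of 4 hours it used the serum mean of 3 hours, from mice at 12.24 and 14.17. In the limma fit that carries the spread of the serum mice, the change of OA minus serum over time had an adjusted p of 0.743. OA minus serum at 3 hours turned to -0.077 with the fitted signal at constant diameter, -0.81 with medians, -0.53 with the image and -0.84 with the fitted signal at calculated diameter, and ran from -0.70 to 1.22 with mice left out.

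For Napsa, intermediate minus early turned to -0.24 in lot 3, and late minus early was called with microarrays as observations, without and with the spelling term (0.62 and 0.60). OA minus serum was called at 0.48 with the fitted signal at constant diameter, 1.25 with the image and 1.53 with the fitted signal at calculated diameter. In the same order Napsa over Sftpd late minus early was 0.41, 0.24 and 0.18, no longer called. Napsa over Slc34a2 in OA minus serum was 1.53 and 1.65 with the last 2 of these, both called, and ran from -0.084 to 0.17 with mice left out. The time-centred r of Napsa ran from -0.60 to -0.52 with Slc34a2 (call lost without P12L3) and from -0.17 to 0.015 with Sftpd.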
